A study of Mus musculus with 5 samples.

Results

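The cells described here are CD4 T cells of the mouse mediastinal lymph nodes, which drain the heart. They were split by whether another filtered cell in the same library had the same deposited clonotype number, a label for its T cell receptor. Lymph node cells were taken with at least 200 detected genes, at most 10% mitochondrial UMIs (unique molecular identifiers, each an RNA molecule counted once), a top hashtag of at least 10 UMIs and 3 times the second, a productive T cell receptor beta (TRB) contig, more Cd4 than Cd8a and Cd8b1 UMIs together, and no Foxp3 UMI. A cell was called expanded when its deposited clonotype number was held by 2 or more of all hashtag-assigned TRB cells past the filter. It was called a singleton when no other of these cells held the number. A singleton can still share its TRB chain with another cell. Of 13016 barcodes, 10192 passed the cell filter, 6974 of these had a TRB contig, and 1483 met every condition, 385 of them expanded and 1098 singletons. The cells were selected on the deposited clonotype numbers and on their Cd4, Cd8a, Cd8b1 and Foxp3 counts, so none of these is a result.

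The study sorted CD44-high T cells from C57BL/6 mice of 2, 6, 12 and 18 months and pooled them in 1 droplet library, with each condition stained by its own hashtag antibody. The mice received no agent beyond aging, and the number of mice behind a hashtag is not known here. The age behind each of the 8 hashtags was not used here, so hashtags were never read as ages, and expanded cells were compared with singletons of the same hashtag. With no statement that hashtags are separate animals, p-values below measure only the spread between these hashtag samples. The heart libraries of the series were not part of the comparison. Of the lymph node barcodes, 7 recurred in the 2-month heart library and 0 in the 18-month library, and none of the 7 was among the 1483 cells.

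Each T cell joins V, D and J gene segments at random during thymic development, so a receptor nucleotide sequence shared by cells usually marks descent from a common ancestor that divided after meeting its antigen. CD4 T cells help other immune cells. Follicular helper cells, marked by Cxcr5 and Pdcd1, support B cells in germinal centres, while T helper 1 and cytotoxic CD4 cells make interferon gamma, chemokines and granzymes. Cells that have not met antigen keep Ccr7, which guides them to lymph nodes, and CD44 rises after activation.

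The 8 clonotypes with the most CD4 cells are shown by their TRB CDR3, the stretch of the receptor that contacts the antigen peptide, because the marker counts of single clones given further on refer to them. Lower case marks bases that match the germline V or J segment of the GENCODE M21 annotation (build GRCm38), and capitals mark bases in between that match neither.
Clone A: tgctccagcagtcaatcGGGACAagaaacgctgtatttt
Clone B: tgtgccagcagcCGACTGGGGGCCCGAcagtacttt
Clone C: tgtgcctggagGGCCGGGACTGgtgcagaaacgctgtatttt
Clone D: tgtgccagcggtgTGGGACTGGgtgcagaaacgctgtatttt
Clone E: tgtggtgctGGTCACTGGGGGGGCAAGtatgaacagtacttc
Clone F: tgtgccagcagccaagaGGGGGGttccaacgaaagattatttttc
Clone G: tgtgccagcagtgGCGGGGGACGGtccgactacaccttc
Clone H: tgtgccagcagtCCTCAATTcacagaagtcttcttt
The beta chains used 8 different V segments, TRBV23, TRBV3, TRBV31, TRBV13-2, TRBV20, TRBV2, TRBV13-1 and TRBV19 in the order A to H. Clones A, C and D shared the J segment TRBJ2-3, which 8.63% of 197 expanded clonotypes and 9.74% of 1098 singletons also used. Both germline D segments open with the same letters, Trbd1 (chr6:41533201-41533212, plus strand) being GGGACagggggc and Trbd2 (chr6:41542163-41542176, plus strand) GGGACtgggggggc. The motif GGGAC, searched on the coding strand only, stood among the capital bases of 4 of the 8 clones, in 25.4% of the expanded clonotypes and in 20.9% of singletons. No V segment recurred among the 8, and the difference in motif share was not tested.

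The 385 expanded cells belonged to 197 clonotypes. Of these, 112 had 1 CD4 cell that met the conditions, 50 had 2 and 35 had 3 or more, and 12 had 5 or more. A clonotype with only 1 such cell was expanded through cells outside the CD4 gate. Over all lineages the 197 clonotypes held 704 cells, of which 275 had neither lineage ahead in UMIs, 31 were CD8 cells (in 21 clonotypes) and 13 had a Foxp3 UMI (in 12 clonotypes). All 1986 TRB cells with neither lineage ahead, expanded or not, were shallow, with a median of 2237.5 UMIs. Counting CD4 cells alone, 195 of the 197 clonotypes lay within 1 hashtag and 2 in 2 hashtags, and over all lineages 22 spanned at least 2 hashtags. Clone A was the largest, with 28 CD4 cells and 49 cells in all, followed by clone B with 12 and 21.

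Expanded cells made up 10.4% of the CD4 cells in hashtag 1 (95% Clopper-Pearson interval 6.28 to 15.9, counting error only), 5.13% in hashtag 2 (1.41 to 12.6), 17.5% in hashtag 3 (11.6 to 24.9), 18.8% in hashtag 4 (12.5 to 26.5), 15.5% in hashtag 5 (10.3 to 22.1) and 23.6% in hashtag 6 (17.4 to 30.9). Hashtag 7 stood at 45.6% (40.1 to 51.1) and hashtag 8 at 32.6% (27.4 to 38.1). These last hashtags held 250 of the 385 expanded cells. The share of CD8 cells that were expanded, by the same definition, was also highest there, at 43.8% in hashtag 7 and 50.2% in hashtag 8, against 10.3% to 19.8% in the other 6. Hashtags 7 and 8 had the most CD4 cells (329 and 307, against 78 to 173), and a repeat is more likely to be caught where more cells are sampled, so its part in the shares was not tested.

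**Figure D1:**
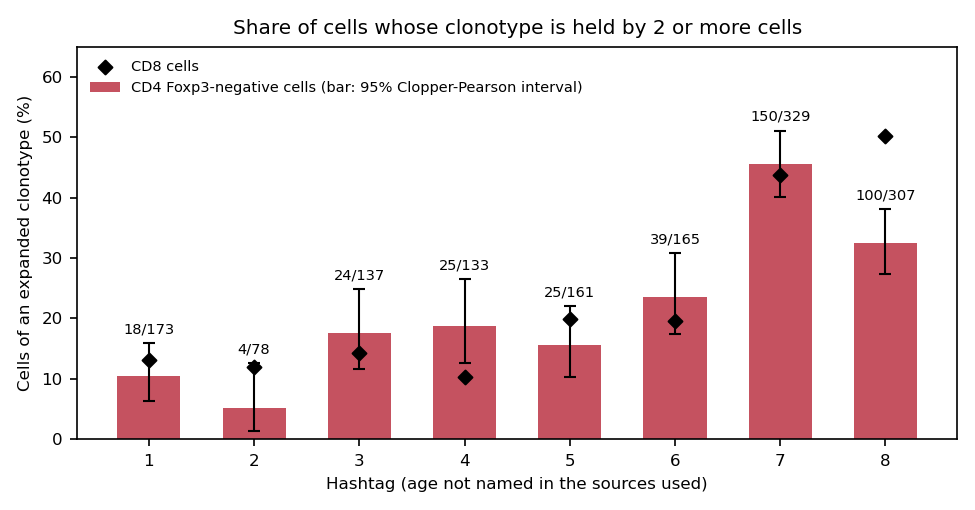
Percent of CD4 Foxp3-negative cells with a TRB contig that belonged to an expanded clonotype, for each hashtag (bars, with 95% Clopper-Pearson intervals and expanded cells over all cells above them), and the same percent of CD8 cells (diamonds). Hashtags 7 and 8 stand at 45.6% and 32.6%, above the other 6.

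Hashtag 2 had 4 expanded cells and was left out of every test, which left 7 hashtags with 381 expanded cells and 1024 singletons. Summed UMIs ran from 43575 to 667008 in expanded cells and from 499288 to 1001706 in singletons, so that 1 UMI was worth 22.9 CPM (UMIs of a gene scaled to the same total in every sum) in the expanded cells of hashtag 1 and 1.499 CPM in those of hashtag 7. Hashtag 1 stood apart in quality. The median expanded cell there had 1577.5 UMIs against 3725 in singletons, and 55.6% of its 18 expanded cells lacked an alpha chain (TRA) contig against 14.2%. Over the 7 hashtags, the log2 ratio of median UMIs per cell had a median of -0.23 (range -1.24 to 0.20, lower in 5 of 7), and the exact two-sided paired permutation test gave p = 0.109 (adjusted 0.219 over 4 such tests, smallest p allowed 0.0156). T cell markers summed to 4177 to 6616 CPM in expanded cells and 4698 to 6375 CPM in singletons. The CD8 markers summed to 0 to 15.2 CPM in expanded cells, with Cd8a at 0, and to 2.00 to 12.9 CPM in singletons. The rule selected against these genes, so their level is no check of purity. The gamma delta and neutrophil markers were at or near 0 in both states.

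Expression was compared in UMI sums per hashtag and state. In such sums, fewer cells of a kind and less RNA per cell cannot be told apart. With the hashtag as a block, edgeR's quasi-likelihood test called 16 of 6033 genes at an adjusted p below 0.05 (0.265%), 8 higher in expanded cells (0.133%) and 8 lower (0.133%). Of the 16, 11 lay in the same direction in all 7 hashtags, where 1.39% of all genes tested were higher and 1.72% lower in all 7. Without the block, edgeR called 0 genes, with 404 at an unadjusted p under 0.05 against 423 with it. With hashtag 7 left out, which holds clones A to D and F, 6 genes were higher and 3 lower, and 7 of the 16 kept their call. With hashtag 8 left out there were 17 and 18, and without both 13 and 4. With hashtag 6 left out the lower genes numbered 5.

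Of the 8 genes that rose, Gzmk and Nkg7 belong to cytotoxic granules and Tigit and Pdcd1 encode inhibitory receptors. Gzmk, a granzyme of effector memory T cells (ENSMUSG00000042385, chr13:113171608-113225908), stood at 9.64, 214 and 1780 CPM (lowest, median and highest of 7 hashtags) in expanded cells, against 4.41, 134 and 627 in singletons. It was higher in 6 of 7 hashtags, although the 2 sets of values overlapped because hashtags differed widely. The fitted log2 fold change was 1.08 ± 0.19 (SE, 7 hashtags, adjusted p = 0.00334 by edgeR). Without hashtag 7 it was 0.88 with an adjusted p of 0.118, so its call did not hold without that hashtag, although it was called again without hashtags 7 and 8 together (1.25). Gzmk also lost its call without cells with a Mki67 or Top2a UMI (0.64, adjusted p = 0.254), with clonotypes of 3 or more cells (1.04, 0.304), with size over CD4 cells (0.62, 0.513) and with thinned cells (0.86, 0.104). Nkg7, a granule protein of cytotoxic cells (ENSMUSG00000004612, chr7:43437073-43438249), stood at 115, 337 and 1699 CPM against 76.5, 172 and 673. The log2 fold change of Nkg7 was 0.95 ± 0.15 (adjusted p = 0.00174), and it was higher in 7 of 7 hashtags. Nkg7 stood at -0.016 (adjusted p = 0.999) when clonotype size was counted over CD4 cells alone, a definition under which only 6 hashtags and 263 expanded cells remained. It also lost its call with clonotypes of 3 or more cells (0.51, adjusted p = 0.867), without cells with a Mki67 or Top2a UMI (0.61, 0.165), under the authors' cell filter (0.63, 0.121) and with clonotypes by TRB CDR3 (0.75, 0.0512).

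Tigit and Pdcd1 also rose, while the other 9 tested checkpoint genes were not called. Tigit, an inhibitory receptor for poliovirus receptor family ligands, stood at 207, 380 and 665 CPM in expanded cells and 42.7, 210 and 322 CPM in singletons. Its log2 fold change was 1.09 ± 0.19 (adjusted p = 0.00269), higher in 7 of 7 hashtags. Pdcd1, which encodes the inhibitory receptor PD-1 and is abundant in follicular helper cells, stood at 250.4, 593 and 906 CPM against 110.3, 259 and 519. Its log2 fold change was 0.80 ± 0.15 (adjusted p = 0.00697), again higher in 7 of 7. Both calls remained with each hashtag left out in turn, but not under several other settings. Pdcd1 stood at 0.34 (adjusted p = 0.934) without cells with an Ikzf2 or Il2ra UMI and at 0.35 (0.939) with 1 cell per clonotype. Its adjusted p was 0.101 with clonotypes of 3 or more cells, 0.105 with size over CD4 cells, 0.0671 with exactly 1 TRB and 1 or 2 TRA contigs and 0.0512 with clonotypes by TRB CDR3. Tigit stood at 0.85 (0.220) with size over CD4 cells and 0.66 (0.104) with cells thinned to 1000 UMIs, and its adjusted p was 0.0816 with exactly 1 TRB and 0.0512 with 1 cell per clonotype.

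S100a11, a calcium-binding protein of activated and migrating cells, had expanded values of 1089.6, 1381 and 1626 CPM and singleton values of 355, 967 and 1193 CPM. The fold change was 0.65 ± 0.11 on the log2 scale (adjusted p = 0.00269), higher in 7 of 7, with log2 ratios from 0.34 in hashtag 7 to 1.64 in hashtag 1. It lost its call with the largest clonotype of each hashtag left out (0.375, adjusted p = 0.310), with 1 cell per clonotype (0.42, 0.369) and without cells with an Ikzf2 or Il2ra UMI (0.48, 0.137). Hist1h1d, a linker histone made in dividing cells, stood at 33.3, 95.05 and 441 CPM against 13.2, 44.4 and 71.5 (log2 fold change 1.80 ± 0.33, adjusted p = 0.00722, higher in 6 of 7). Its call was lost without hashtag 4 (1.47, adjusted p = 0.0680) or hashtag 7 (1.43, adjusted p = 0.136). With 1 cell per clonotype it stood at 0.021 (adjusted p = 0.999), and with the largest clonotype of each hashtag left out at 1.07 (0.534). Dap, a death-associated protein, was higher in 6 of 7 hashtags (0.70 ± 0.15, adjusted p = 0.0340). Its call was lost without any of hashtags 1, 3, 6, 7 or 8, at adjusted p-values of 0.0848 to 0.158. Over the 27 alternative settings, Dap was called in 10. Serpina9, a serpin otherwise known from germinal centre B cells, stood at a median of 37.5 CPM against 13.98 (1.53 ± 0.32, adjusted p = 0.0272), higher in 5 of 7 hashtags. It had a UMI in 0 of 461 B cells of the same pool, and its call was lost without hashtag 3, 6 or 7 (adjusted p of 0.141, 0.0722 and 0.122).

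Of the 8 genes that fell, 4 (Igfbp4, Dapl1, Ccr7 and Satb1) belong to the list of naive and recirculating T cell genes. Igfbp4, an insulin-like growth factor binding protein found in naive T cells (ENSMUSG00000017493, chr11:99041244-99054392), had 8 UMIs in expanded cells and 357 in singletons of the 7 hashtags. It stood at 0, 4.50 and 45.9 CPM in expanded cells and 18.3, 74.1 and 255 CPM in singletons. The log2 fold change was -3.13 ± 0.44 (adjusted p = 0.000453), lower in 7 of 7 hashtags, with 3 of the 7 expanded sums at 0. Without cells with an Ikzf2 or Il2ra UMI it was -2.12 (adjusted p = 0.0626). Dapl1, another gene of naive T cells (ENSMUSG00000026989, chr2:59484653-59505020), had 7 UMIs against 292. It was at 0 in 5 of 7 expanded sums and between 13.0 and 176 CPM in singletons (-3.13 ± 0.45, adjusted p = 0.000453). Of its 7 expanded UMIs, 5 came from hashtag 3. Dapl1 could not be tested without hashtag 3, with clonotypes of 3 or more cells or with size over CD4 cells. The same held with 1 cell per clonotype and with thinned cells.

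Ccr7, the chemokine receptor for entry into lymph nodes, stood at 34.5, 91.2 and 344 CPM in expanded cells and 109.8, 175 and 356 CPM in singletons. It was lower in 7 of 7 hashtags, by -1.17 ± 0.18 on the log2 scale (adjusted p = 0.000861). In hashtag 1 the values were nearly level, at 344 and 356 CPM. Without hashtags 7 and 8 the Ccr7 fold change was -0.93 with an adjusted p of 0.0678. With 1 cell per clonotype and with thinned cells the Ccr7 call was also lost (-0.99, adjusted p = 0.185, and -0.95, adjusted p = 0.113). Satb1, a chromatin organiser of developing and naive T cells, was lower in 6 of 7 hashtags (-1.70 ± 0.33, adjusted p = 0.0101). Without hashtag 7 it stood at -1.38 (adjusted p = 0.136). The Satb1 call was also lost with clonotypes of 3 or more cells and without hashtags 7 and 8 together. It remained in 19 of the 24 alternative settings that fitted Satb1.

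The other genes that fell were Rapgef6, Peli1, Smad7 and 9930111J21Rik2. Rapgef6, an exchange factor for Rap GTPases, stood at a median of 143 CPM in expanded cells and 252 in singletons (-0.78 ± 0.15, adjusted p = 0.00768). Peli1, a ubiquitin ligase that limits T cell receptor signalling, stood at 114 and 205 CPM (-0.80 ± 0.16, adjusted p = 0.0149). Smad7, an inhibitor of TGF-beta signalling, stood at 22.5 and 62.4 CPM (-1.38 ± 0.30, adjusted p = 0.0371). 9930111J21Rik2 stood at 27.2 to 60.8 CPM in expanded cells and 61.5 to 122 in singletons, so its values did not overlap (-1.02 ± 0.22, adjusted p = 0.0288). All 4 were lower in 7 of 7 hashtags, and all 4 lost their call without hashtag 7, at adjusted p-values of 0.0853 (Rapgef6), 0.120 (Peli1), 0.168 (Smad7) and 0.286 (9930111J21Rik2). Peli1 also lost it without hashtag 6 (0.0835). So did Smad7 without hashtag 1, 3, 4 or 6 (0.0749 to 0.130), and 9930111J21Rik2 without hashtag 1, 4, 5 or 6 (0.0551 to 0.0741). Across the alternative settings that fitted them, calls remained in 18 of 27 (Rapgef6), 17 of 27 (Peli1), 10 of 26 (Smad7) and 11 of 26 (9930111J21Rik2). Rapgef6 and Peli1 lost theirs, among others, with clonotypes of 3 or more cells, with 1 cell per clonotype and with thinned cells.

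**Figure D2:**
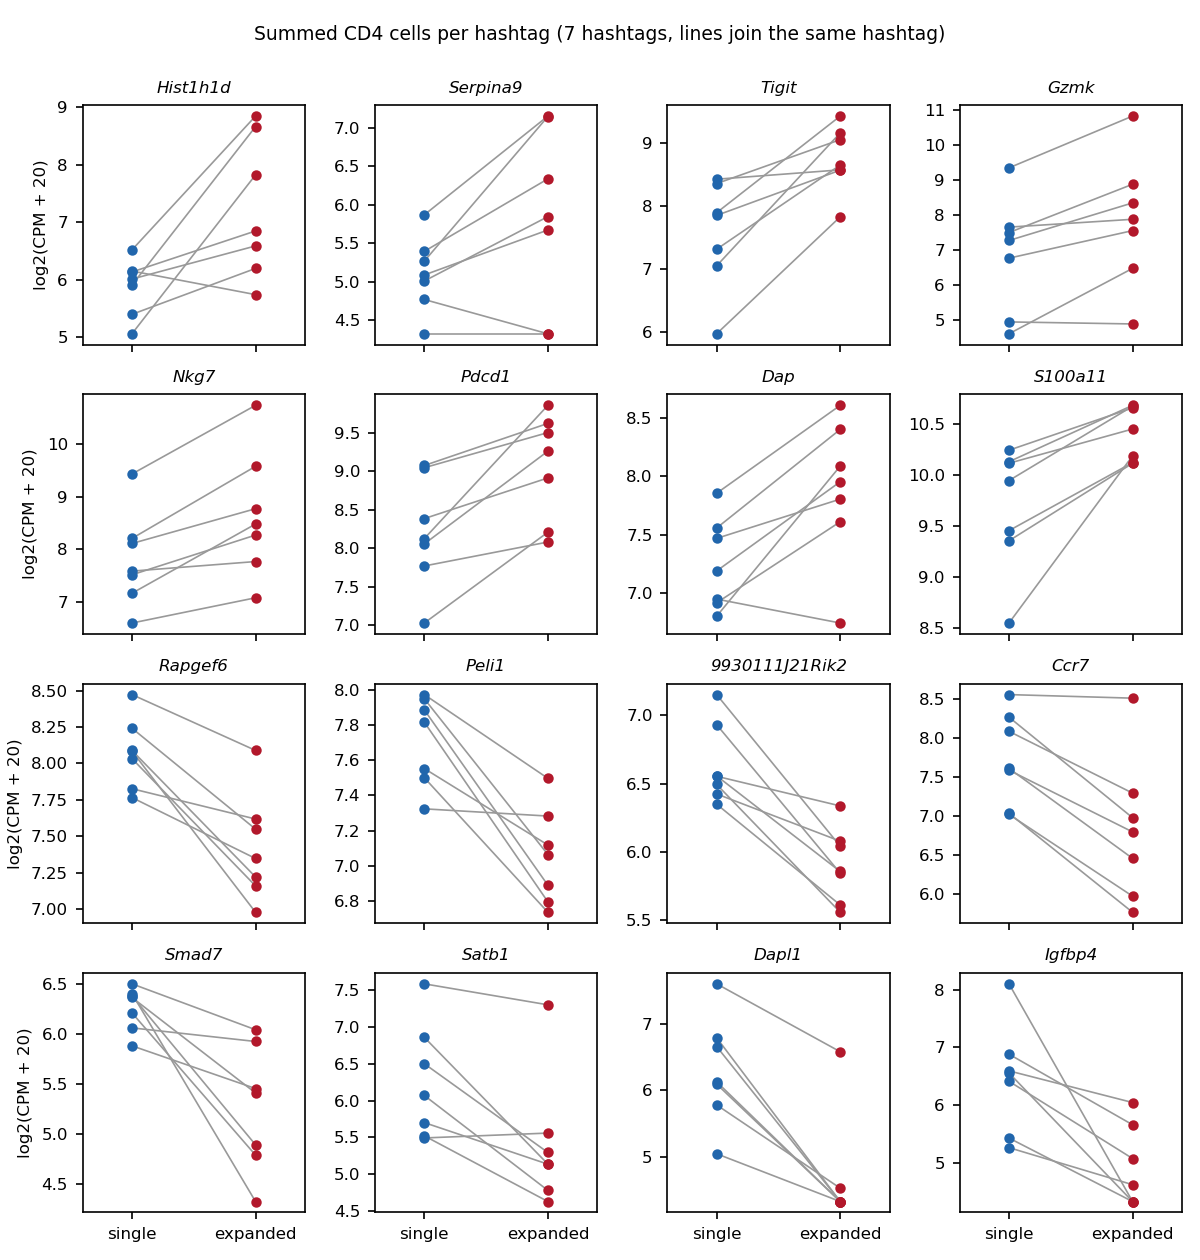
log2(CPM + 20) of the 16 called genes in singletons and in expanded cells, summed per hashtag, with lines joining the same hashtag (7 hashtags, vertical scales differ). Tigit, Nkg7, Pdcd1 and S100a11 slope up and Igfbp4, Dapl1 and Ccr7 slope down in 7 of 7 hashtags. Ccr7 is nearly level in hashtag 1 (log2 ratio -0.046). Gzmk is slightly lower in hashtag 4 (-0.058).

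Ly6c1, a surface protein of memory and some naive-like T cells, did not pass the main low-count filter, which counts sums of both states, and was not tested there. It had 2 UMIs in expanded cells and 198 in singletons, with 0 to 2.38 CPM against 13.0 to 134 CPM, so that the 2 sets did not overlap. Fitted with no low-count filter, its log2 fold change was -4.20 ± 0.60 (adjusted p = 2.28e-09 by edgeR), a size that depends on the fit's prior count. It was also tested with clonotypes by TRB CDR3 and V (-2.03 ± 0.39, adjusted p = 0.0370). Without hashtag 8 the fold change was -4.79 ± 0.67. There Ly6c1 passed the filter only through the singleton sums, where it was high, so no p-value is read from that fit.

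Shares of cells with a UMI showed how many cells carried these transcripts. Gzmk was found in 152 of 385 expanded cells (39.5%) and 134 of 1098 singletons (12.2%), beside 0.868% of 461 B cells of the pool, which should lack it. Median depths were 3393, 3643 and 3981 UMIs. With every cell thinned to 1000 UMIs, which left out 38 expanded cells, 53 singletons and 46 B cells, the Gzmk shares were 29.7%, 8.52% and 0.964%. Igfbp4 was found in 1.82% of expanded cells and 8.38% of singletons, beside 0.434% of B cells. Ccr7 was found in 17.4% and 33.9%, with B cells, which also use this receptor, at 40.3%. These are shares over all cells, in which hashtags 7 and 8 weigh most, and they carry no test.

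The lists of gene groups were counted within the same fit, where the median log2 fold change of all 6033 genes was -0.01. Of 23 tested follicular helper genes, 1 (Pdcd1) was called higher and 0 lower, with a list median of 0.38 and 19 members above 0. Tox2 and Cxcr5, a transcription factor and the follicle-homing receptor of these cells, were higher in 7 of 7 hashtags but missed the threshold. Cxcr5 stood at 91.8, 148 and 231 CPM in expanded cells and 30.9, 68.5 and 126 in singletons (0.87 ± 0.21, adjusted p = 0.0827), and Tox2 had a log2 fold change of 0.85 ± 0.21 (adjusted p = 0.0759). Il4, a cytokine of germinal centre help, stood at 1.30 ± 0.32 (adjusted p = 0.0807). Sostdc1, a secreted antagonist made by follicular helper cells, stood at 0.90 ± 0.33 (adjusted p = 0.450). Both were higher in 5 of 7 hashtags. Bcl6, also on the list, stood at 0.49 ± 0.34 (adjusted p = 0.889, higher in 4 of 7), Icos at 0.03 and Izumo1r at 0.02. The 4 members below 0 were Cd200 and Rgs10 (both -0.25), Btla (-0.12) and Cd40lg (-0.04). Of 11 tested checkpoint genes, Tigit and Pdcd1 were called higher (list median 0.20), while Lag3 was at -0.09 ± 0.18 (adjusted p = 0.999).

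Among 15 tested T helper 1 and cytotoxic genes, Gzmk and Nkg7 were called and the median was 0.0046. Their fellow member Ccl5, a chemokine of effector cells, ran from 203 to 10941 CPM in expanded cells and from 100.03 to 4049 in singletons (0.71 ± 0.29, adjusted p = 0.571). Ccl5 was higher in 4 hashtags and lower in 3. Ifng, which encodes interferon gamma, had 39 UMIs in expanded cells and 143 in singletons (-0.23 ± 0.37, adjusted p = 0.997). Of 16 tested naive and recirculation genes, 4 were called lower (Igfbp4, Dapl1, Satb1 and Ccr7) and 0 higher, with a median of -0.52. Il7r, the interleukin 7 receptor that keeps resting T cells alive, stood at -0.71 ± 0.17 (adjusted p = 0.0780), while Tcf7, a transcription factor of naive and memory T cells, was at 0.02 ± 0.13. Of the 16 tested members, 13 lay below 0 and 3 above 0, Tcf7 among the latter.

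No member was called in the lists for interferon gamma response (30 tested, median -0.15, 26 below 0), type I interferon-stimulated genes (24, -0.13), T cell receptor signal (19, -0.08), cell cycle (24, 0.25, 21 above 0), glycolysis (12, 0.16), oxidative phosphorylation (38, 0.04), regulatory T cell genes (12, -0.0076) and MHC class I (14, -0.02). The lowest interferon gamma response genes were Irgm1, an immunity GTPase, at -0.83 ± 0.25 (adjusted p = 0.245), and the receptor chain Ifngr1 at -0.71 ± 0.20 (adjusted p = 0.167). All 51 ribosomal protein genes tested lay below 0 (median -0.21) and 0 were called. Of 19 tested memory and adhesion genes, S100a11 was called higher (median 0.06), while S100a4 stood at -0.50 ± 0.22 (adjusted p = 0.622). Over all 6033 genes 0.265% were called, and at that share a list of this size would mostly hold no call. Lists without a call are thus no result about their genes. The lists overlap, so Pdcd1 counts in 2 of them.

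**Figure D3:**
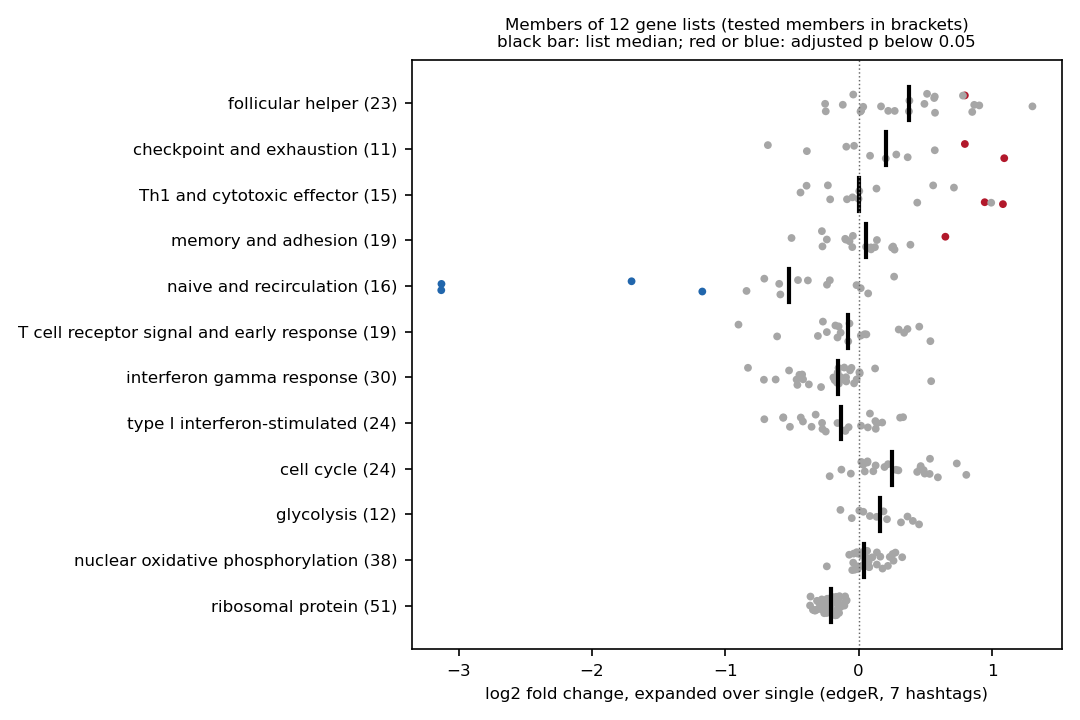
log2 fold change of expanded over singleton CD4 cells (edgeR, 7 hashtags) for the tested members of 12 gene lists, a point per gene, with black bars at list medians and coloured points for called genes. The naive list reaches lowest, with Igfbp4 and Dapl1 at -3.13, and the follicular helper median of 0.38 is the highest of those drawn.

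Markers of other cells were present in both states. B cell markers summed to 216 to 1882 CPM in expanded cells and 324 to 1196 CPM in singletons, with 0 of 4 tested members called. Dendritic markers, which include MHC class II genes shared with B cells, summed to 274 to 7619 and 335 to 4022 CPM, which at its highest exceeded the T cell marker sums. Plasma cell markers summed to 30.4 to 1593 and 67.0 to 1438 CPM. Monocyte and macrophage markers summed to 164 to 734 and 107 to 335 CPM, higher in expanded cells in 4 of 7 hashtags, with Cd14 at 0 in both states. Their part in the results was not tested. Absence of a Foxp3 UMI does not exclude a regulatory T cell, and Ikzf2, a factor of regulatory and some helper cells, was found in 161 expanded cells. Without cells that had an Ikzf2 or Il2ra UMI, 9 genes were called higher and 15 lower, and 6 of the original 16 kept their call, with all 14 that could be tested in the same direction.

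The largest clones differed in which of these genes they carried. Clones A, B, C, D and F, all of hashtag 7, had a Gzmk UMI in 28 of 28, 12 of 12, 8 of 8, 7 of 7 and 5 of 6 cells. Nkg7 was found in 27, 11, 8, 6 and 5 of the same cells, and Sostdc1, Il4 and Il21 were at 0 in all 5 clones. Cxcr5 was found in 9, 6, 4, 3 and 1 of the same cells and Tox2 in 3, 4, 2, 2 and 0, so Cxcr5 was not limited to clones without Gzmk. Ccl5 reached 12188 CPM in clone A, 21023 in clone B and 27158 in clone D, against 529 in clone F. Pdcd1 was found in 7, 5, 0, 2 and 2 cells of clones A, B, C, D and F, at 0 to 155 CPM. The singletons of hashtag 7 stood at 198 CPM of Pdcd1.

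Clone E of hashtag 4 and clone H of hashtag 8 had 0 Gzmk and 0 Nkg7 UMIs in 7 and 6 cells. In clone E, Sostdc1 was found in 7 of 7 cells (4368 CPM), Pdcd1 in 7 of 7 (1966 CPM), Tigit in 6 and Tox2 in 6. Clone H had Cxcr5 in 4 of 6 cells, Pdcd1, Tigit, Tox2 and Sostdc1 in 3 each and Il21 in 2. Il1r2, a decoy receptor for interleukin 1, was found in 3 cells of clone E and 2 of clone H, but in 1 of clone A and 1 of clone C and in none of B, D, F and G. Ikzf2 was found in 6 of 7 cells of clone E (1238 CPM) and 4 of 6 of clone H (353 CPM). In clones A, B, C, D, F and G it was found in 6, 4, 2, 2, 1 and 1 cells (37.8 to 265 CPM). A regulatory origin of clones E and H was not tested. Clone G had Gzmk in 4 of 6 cells with 0 Nkg7 UMIs, and Cxcr5 in 3. S100a11 was found in most cells of every clone, and Igfbp4 in none of the 8.

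**Figure D4:**
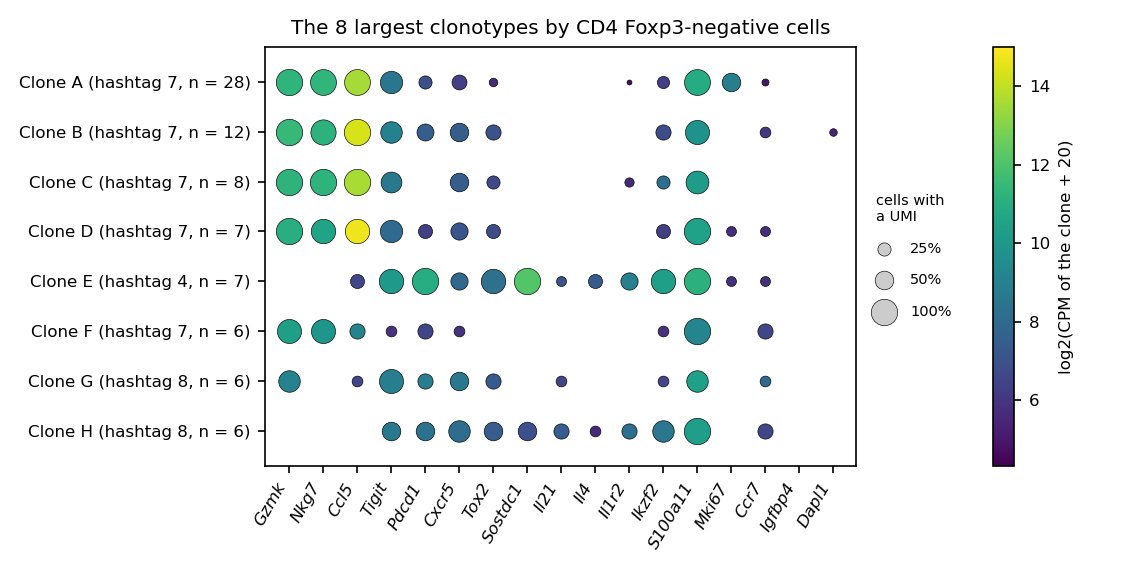
Markers in the 8 clonotypes with the most CD4 cells, with the percent of cells holding a UMI as circle size and log2(CPM + 20) of the clone's summed UMIs as colour (no circle means 0 UMIs). Gzmk and Nkg7 fill clones A to D and F of hashtag 7 and are at 0 in clones E and H, which hold Sostdc1 and Il1r2.

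The 35 clonotypes with 3 or more CD4 cells were counted for each gene on its own. Gzmk was found in at least 1 cell of 17 clonotypes and in none of 18, and Nkg7 in 19 and none of 16. By the same count of at least 1 cell, Pdcd1 was found in 31 of the 35, Tigit in 27 and Cxcr5 in 25, against S100a11 in 35, Dapl1 in 1 and Igfbp4 in 0. Cells with a UMI were at least as many as cells without in fewer clonotypes. These numbered 17 for Pdcd1, 19 for Tigit, 12 for Cxcr5, 14 each for Gzmk and Nkg7 and 33 for S100a11. Among the 385 expanded cells, 99 had Gzmk or Nkg7 without Cxcr5, Tox2 or Sostdc1, 122 had one of the latter without the former, 81 had both kinds and 83 had neither. Among 1098 singletons the counts were 166, 312, 87 and 533. These counts depend on depth and carry no test, and Cxcr5 was also found in 35.4% of B cells of the pool.

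Clone A weighed on several genes. It held 31.6% of the Gzmk UMIs, 32.1% of the Nkg7 UMIs and 48.5% of the Mki67 UMIs of all expanded cells, and Mki67, a marker of dividing cells, was found in 14 of its 28 cells. Over the 7 hashtags Mki67 stood at 0.49 ± 0.31 on the log2 scale (adjusted p = 0.870). With the largest clonotype of each hashtag left out, 7 genes were called higher and 6 lower, and 11 of the 16 kept their call, Gzmk and Nkg7 among them. S100a11, Hist1h1d, Dap, Smad7 and 9930111J21Rik2 did not. With 1 cell drawn per clonotype and hashtag, only 5 hashtags and 102 expanded cells remained. Then 3 of the 16 kept their call (Nkg7, Gzmk and Serpina9), and the 13 that could be tested kept their direction.

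Levels by clone size were compared without a test. Cells of clonotypes with 2 members, just inside the rule, had a median over 5 hashtags of 258 CPM of Gzmk, 422 of Nkg7, 562 of Pdcd1 and 399 of Tigit. Singletons, just outside it, had medians over 8 hashtags of 111, 167, 252 and 174 CPM. Clonotypes of 3 to 4 cells had medians over 5 hashtags of 295 CPM of Gzmk and 223 of Nkg7. Clonotypes of 5 or more cells reached 10 cells in only 3 hashtags, where the lowest, middle and highest values were 0, 71.2 and 1959 CPM of Gzmk, 0, 0 and 1969 of Nkg7 and 168, 743 and 985 of Pdcd1. Dapl1 and Igfbp4 had medians of 0 at every size from 2 upwards, against 62.7 and 75.3 CPM in singletons. The steps rest on different sets of hashtags, so no order with clone size was read from them.

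None of the 3 receptor measures passed the test between states after adjustment, which also covered the test of UMIs per cell. The mean TRB CDR3 length over clonotypes was 13.6 to 14.8 amino acids in expanded and 13.7 to 14.03 in singleton clonotypes of the 7 hashtags. The difference had a median of -0.18 amino acids (range -0.29 to 0.77, exact paired permutation p = 0.891, adjusted 0.891). The number of bases that match neither germline V nor J was lower in 5 of 7 hashtags, by a median of -0.30 (range -0.94 to 0.61, exact p = 0.328, adjusted 0.438). The share of cells with 2 TRA contigs was lower in expanded cells in 6 of 7 hashtags, by a median of -5.81 percentage points (exact p = 0.0469, adjusted 0.188), but clonotype numbers use the TRA contigs, so this is close to the rule. Receptors of the invariant TRA types of NKT and MAIT cells were found in 0 expanded cells and 12 singletons.

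The same contrast was fitted in CD8 cells (837 expanded, 2276 singletons) in a model with both lineages, to ask where CD4 and CD8 cells differed. edgeR called 0 of 6952 genes (0%) for a difference between the lineages, with 309 at an unadjusted p under 0.05. The 3 lowest p-values, each adjusted to 0.0518, belonged to S100a4, Il1r2 and Lag3. S100a4, a calcium-binding protein of memory cells, stood at a median of 55.9 CPM in expanded and 25.7 in singleton CD8 cells, and at 60.8 and 120.1 CPM in CD4 cells, a CD4 minus CD8 difference in log2 fold change of -1.57 ± 0.31. Lag3, an inhibitory receptor, stood at 103 and 39.6 CPM in CD8 cells and 212 and 225 in CD4 cells (-1.32 ± 0.27). Il1r2 stood at 0 and 9.04 CPM in CD8 cells and 85.7 and 25.05 in CD4 cells (3.17 ± 0.63).

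Several genes stood on the same side in both lineages. In the joint model the log2 fold changes in CD4 and CD8 cells were 1.04 and 1.39 for Tigit, 0.76 and 1.31 for Pdcd1, 1.06 and 1.73 for Gzmk and 1.80 and 2.17 for Hist1h1d. They were -1.20 and -0.81 for Ccr7, -3.18 and -1.28 for Dapl1 and -3.17 and -1.46 for Igfbp4. The CD4 fold change of Gzmk was not called in this model (adjusted p = 0.0671), nor was that of Serpina9 (0.107). Those of Il1r2 (0.0481) and Il7r (0.0407), not called in the CD4 fit, passed the threshold here. For the 7 genes with fold changes given above, adjusted p-values of the differences were 0.863 (Dapl1) and 0.999 (the rest). This does not show that the lineages act alike. With 1 cell per clonotype, the difference test called 44 genes, and with clonotypes of 3 or more cells it called 3.

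**Figure D5:**
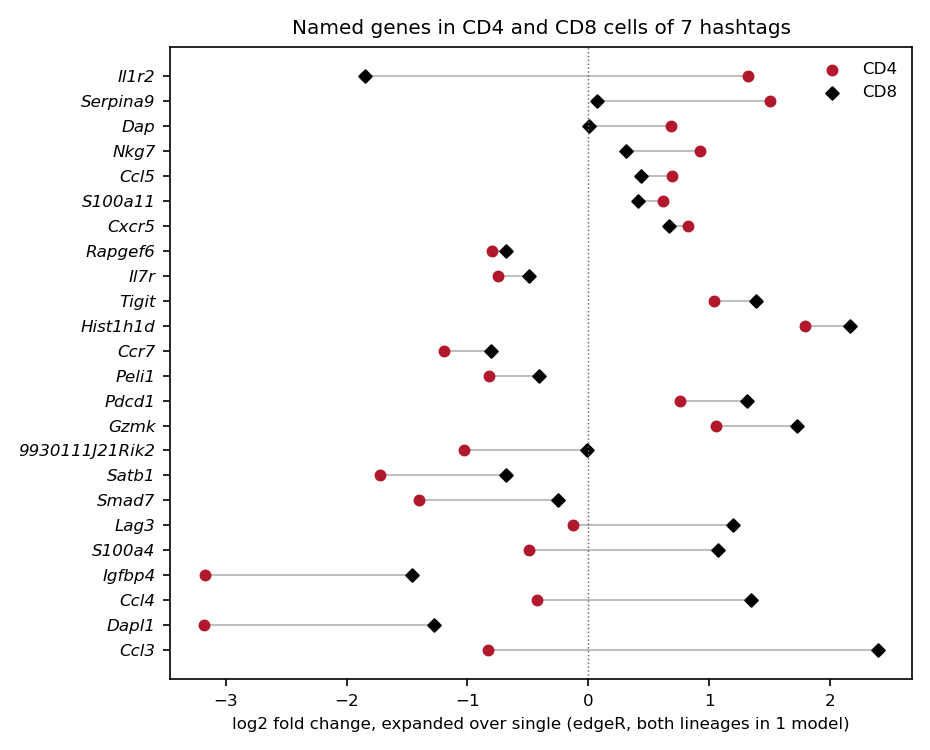
log2 fold change of expanded over singleton cells in CD4 (circles) and CD8 (diamonds) cells for the named genes, from 1 edgeR model over 7 hashtags, ordered by the difference. Il1r2, Lag3 and S100a4 lie on opposite sides of 0 in the lineages, each with an adjusted p of 0.0518 for the difference.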

How the data were processed

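The deposited lymph node matrix holds counts of UMIs per gene and hashtag for each barcode, and the deposited receptor files hold counts of UMIs per contig and of cells per clonotype, per the file headers. The deposited clonotype table also gives each clonotype's share of barcodes as a fraction, which was not used in a result. The submitters' processing notes name Cell Ranger 3.1.0 and the build mm10 (GRCm38). The library used a 5' kit, per the labels' protocols. The cell members and the gene lists were chosen with earlier results of these data known.

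UMIs were summed per hashtag and state and tested with edgeR 4.0.16 (R 4.3.3, quasi-likelihood, TMM, filterByExpr, hashtag as block, Benjamini-Hochberg over all genes tested), in hashtags with at least 10 cells per state. The block is the hashtag, since both sums of a pair come from the same sample. Cd4, Cd8a, Cd8b1, Foxp3 and receptor segment genes were not tested. Standard errors are approximate, the log2 fold change over the square root of F. CPM are the UMIs of a gene in a sum, scaled to the same total in every sum. Named genes were called genes with the same direction in all hashtags but at most 1 (up to 12 each way), genes listed by name, and the 2 called members of lowest p per list and direction. Serpina9, 9930111J21Rik2 and genes near the threshold were named after their values were seen. Paired values were tested by exact two-sided sign-flip permutation (SciPy 1.17.1). Alternatives included DESeq2 1.42.0, other clonotype definitions and cell filters. Scrublet (expected rate 8%) called 0 doublets and so did not work, and no doublet was removed. On simulated data of 6033 genes for the CD4 comparison, 77.4% and 48.9% of genes lowered by 2 and 1 log2 units were called, and 87.9% and 100% of those raised by 1 and 2. The simulated counts had no hashtag differences and the same dispersion for all genes, so these shares may not hold for the real sums. Figures were drawn with Matplotlib 3.10.9.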

Additional observations from a re-analysis of the deposited data

Results flagged for a closer look

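Among 20 sets of hashtag values tested for a lone value far from the rest, of which chance would flag about 1 in 20, 3 stood out, and all 3 came from hashtag 1, the sample with 18 expanded cells of low depth. Its TRB CDR3 length difference was 0.769 amino acids (expanded minus singleton), and the other 6 hashtags lay lower. Its log2 ratio of S100a11 was 1.64, the highest of 7, and its log2 ratio of Ccr7 was -0.046, the one nearest 0. Without hashtag 1, S100a11 and Ccr7 both kept their calls.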

How the results depend on the processing

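The test as reported called 8 genes higher and 8 lower. Counts that moved by over 1.5 times were, as higher and lower, 4 and 4 with exactly 1 TRB and 1 or 2 TRA contigs, 19 and 24 without Mki67 or Top2a UMIs, 28 and 25 under the authors' cell filter, 4 and 5 with clonotypes by TRB CDR3 and V, 0 and 0 with no replicate block, 45 and 70 with no low-count filter, 14 and 5 in DESeq2 (2524 genes with an adjusted p), and 13 and 4 without hashtags 7 and 8. The definitions by TRB CDR3 and without hashtags 7 and 8 were chosen after seeing the data. Higher genes were 3 with size over CD4 cells, and lower genes 15 without Ikzf2 or Il2ra UMIs. Leaving out a hashtag gave 6 to 17 higher and 3 to 18 lower. The lineage difference, 0 genes, became 31 with no low-count filter, 3 with clonotypes of 3 or more cells, 44 with 1 cell per clonotype and 0 to 3 with a hashtag left out. The cause was not tested, and the settings also differ in the number of genes and cells they hold. With size over CD4 cells the UMI ratio turned to 0.12, Nkg7 to -0.016 and Ccl5 to -1.52. Lag3, near 0, turned to 0.069 with no replicate block, to 0.058 and 0.051 without hashtag 6 or 7 (range -0.27 to 0.058 with a hashtag left out) and to 0.11 without hashtags 7 and 8. Ifng turned to 0.014 without hashtag 6 (range -0.44 to 0.014) and Mki67 to -0.10 with 1 cell per clonotype. The 16 called genes otherwise kept their direction in every setting that tested them. Removing Scrublet doublets was not run, since 0 were called. Depth limits rare genes: 1 UMI in the expanded cells of hashtag 1 is worth 22.9 CPM.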

Other observations

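Beyond the called genes, 12 genes were higher and 8 lower in expanded cells at adjusted p-values between 0.05 and 0.1 by edgeR, and none of them counts as changed. The higher ones include the lysosomal proteases Ctsb (0.50 ± 0.12 on the log2 scale, adjusted p = 0.0759) and Ctsl (1.19 ± 0.30, adjusted p = 0.0981), the protease inhibitor Cst3 (0.74 ± 0.18, adjusted p = 0.0780) and the lipid carrier Apoe (1.45 ± 0.37, adjusted p = 0.0935). Cst3 is also in the monocyte and macrophage marker list, whose summed level ran to 734 CPM in expanded cells and 335 CPM in singletons, and the part of such cells was not tested. Tspan3, a tetraspanin, and Art2b, a surface ADP-ribosyltransferase, were higher in 7 of 7 hashtags (0.81 ± 0.19 and 0.72 ± 0.17, adjusted p of 0.0692 and 0.0759). Il1r2 was higher in 7 of 7 (1.33 ± 0.32, adjusted p = 0.0759). In the edgeR model with both lineages, the CD4 adjusted p was 0.0481 for Il1r2 and 0.0407 for Il7r. Of the 8 lower genes, 5 encode ribosomal proteins, among them Rps29 (-0.33 ± 0.08), and the others are Il7r, Tpt1 and Neurl3.

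Clonotype calls rest on both chains. Of the singletons, 131 shared their TRB V segment and CDR3 with another cell, and 154 had no productive TRA contig, as did 55 expanded cells. A further 1986 TRB cells had neither lineage ahead, and 30.4% of them were expanded.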
